A study of Homo sapiens with 3 samples.

Results

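EP300 peaks at the promoters of LINC genes, the long intergenic non-coding RNA genes whose approved symbols begin with LINC, were taken from 2 peak lists of naive H9 human embryonic stem cells. A peak belonged to the set where the authors' annotation placed it in a promoter, which reaches 3 kb from a transcript start, and named a gene whose symbol begins with LINC. Rows of equal chromosome, start and end were joined, and chromosomes 1 to 22 and X were used. Replicate 1 held 1029 such peaks of 65276 peaks in all, and replicate 2 held 1021 of 64896. They made up 3.29% and 3.28% of the 31239 and 31165 promoter peaks. They named 646 genes in replicate 1 and 658 in replicate 2, and 742 genes in either list.

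The study mapped EP300 by chromatin immunoprecipitation and sequencing (ChIP-seq) in wild-type H9, an established human embryonic stem cell line. Naive cells grew in PXGL, a medium that blocks MEK (PD0325901), tankyrase (XAV939) and protein kinase C and supplies human LIF (10 ng/mL), over mouse embryonic fibroblast feeders. There was 1 group with 2 EP300 samples, and 1 input sample whose values were not analysed here. No other condition was sampled, so values are given for each replicate beside the same value over all other promoter peaks, without a test. Nothing in the labels says that the samples came from separate cultures, and the spread between them may be technical. Read depth is unknown.

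EP300, also called p300, is a histone acetyltransferase that transcription factors recruit to enhancers and active promoters, where it acetylates histone H3 at lysine 27. Long intergenic non-coding RNAs are transcribed from their own promoters, are often spliced and polyadenylated, and tend to be expressed in fewer cell types than coding genes. Some, such as LINC-ROR, were described in pluripotent cells, and many lie in gene deserts beside genes for developmental transcription factors. Their starts can also coincide with enhancers, so a peak at such a start does not tell a promoter from an enhancer.

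Start windows from RefSeq (GRCh38.p14, 250 bp before to 50 bp after a start) show how unlike the sequences at LINC starts were. They are not the sequences under the peaks. Only 242 of 1029 LINC peaks in replicate 1 and 246 of 1021 in replicate 2 overlapped a window of their own gene. Of the 742 genes, 715 matched the RefSeq gene table by symbol and 499 had a start window. Capitals mark matches, on either strand, to any of 12 short motifs: ATGCAAAT (POU octamer), CATTGTT (SOX), GGGCGG (SP and KLF), GGGTGTGG (KLF), GCCNNNGGC (TFAP2), GGAATG (TEAD), TGANTCA (AP-1), TGACGTCA (CRE), CCGGAAGT (ETS), the palindrome of NRF1, CCAAT (NFY) and, for the core promoter box of that name, TATAAA. Matches of different motifs that overlap share their capitals. The first 6 windows belong to genes among the 12 highest LINC regions, 3 rich in CpG and then 3 poor in it. The last 2 belong to LINC genes without a region on the window, LINC00473, with 24 CpG sites, and LINC00261, with 8. The windows are chr11:115760151-115760450 on the minus strand for LINC00900, chr3:194070921-194071220 on the minus strand for LINC02028 and chr2:19868604-19868903 on the plus strand for LINC00954. They are chr9:135342999-135343298 on the plus strand for LINC02907, chr1:112850594-112850893 on the minus strand for LINC01356 and chr14:96740941-96741240 on the plus strand for LINC02299. They are chr6:165987990-165988289 on the minus strand for LINC00473 and chr20:22578593-22578892 on the minus strand for LINC00261.
LINC00900: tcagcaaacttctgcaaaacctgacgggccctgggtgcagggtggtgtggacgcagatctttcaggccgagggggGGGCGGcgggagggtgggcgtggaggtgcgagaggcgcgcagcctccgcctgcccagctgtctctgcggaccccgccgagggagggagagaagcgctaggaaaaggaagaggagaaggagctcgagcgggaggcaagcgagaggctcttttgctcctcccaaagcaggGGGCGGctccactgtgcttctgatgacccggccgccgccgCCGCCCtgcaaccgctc
LINC02028: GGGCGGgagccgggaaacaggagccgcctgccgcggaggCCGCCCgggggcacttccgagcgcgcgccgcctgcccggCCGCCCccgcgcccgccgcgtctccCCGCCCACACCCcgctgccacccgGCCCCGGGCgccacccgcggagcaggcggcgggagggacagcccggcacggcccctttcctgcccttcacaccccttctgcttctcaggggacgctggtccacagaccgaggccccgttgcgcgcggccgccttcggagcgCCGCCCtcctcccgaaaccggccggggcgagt
LINC00954: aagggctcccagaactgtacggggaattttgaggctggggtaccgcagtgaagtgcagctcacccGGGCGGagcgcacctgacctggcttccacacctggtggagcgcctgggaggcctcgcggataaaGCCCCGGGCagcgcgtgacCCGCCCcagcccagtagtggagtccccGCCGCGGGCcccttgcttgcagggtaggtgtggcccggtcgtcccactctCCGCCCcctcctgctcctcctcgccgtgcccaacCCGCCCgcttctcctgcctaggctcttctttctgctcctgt
LINC02907: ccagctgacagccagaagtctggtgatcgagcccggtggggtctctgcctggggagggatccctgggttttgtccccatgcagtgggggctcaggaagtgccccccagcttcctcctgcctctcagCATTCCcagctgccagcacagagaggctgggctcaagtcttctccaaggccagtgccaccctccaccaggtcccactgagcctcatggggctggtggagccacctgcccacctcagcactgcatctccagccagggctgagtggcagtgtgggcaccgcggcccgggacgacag
LINC01356: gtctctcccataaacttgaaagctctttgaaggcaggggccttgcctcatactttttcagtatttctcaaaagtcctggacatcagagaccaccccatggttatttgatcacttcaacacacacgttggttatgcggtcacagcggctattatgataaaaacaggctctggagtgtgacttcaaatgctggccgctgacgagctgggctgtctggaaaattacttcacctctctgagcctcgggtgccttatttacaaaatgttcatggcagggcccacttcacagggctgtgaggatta
LINC02299: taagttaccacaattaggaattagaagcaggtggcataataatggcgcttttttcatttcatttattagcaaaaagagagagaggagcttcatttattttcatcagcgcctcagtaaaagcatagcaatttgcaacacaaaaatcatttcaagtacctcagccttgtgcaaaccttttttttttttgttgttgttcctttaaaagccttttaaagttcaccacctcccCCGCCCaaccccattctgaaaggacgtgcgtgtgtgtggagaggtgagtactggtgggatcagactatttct
LINC00473: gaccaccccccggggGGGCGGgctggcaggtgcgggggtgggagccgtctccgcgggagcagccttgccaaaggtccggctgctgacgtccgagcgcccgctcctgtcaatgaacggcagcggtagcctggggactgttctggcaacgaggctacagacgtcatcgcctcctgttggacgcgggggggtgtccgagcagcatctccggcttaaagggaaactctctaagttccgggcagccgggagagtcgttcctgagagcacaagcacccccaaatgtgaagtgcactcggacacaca
LINC00261: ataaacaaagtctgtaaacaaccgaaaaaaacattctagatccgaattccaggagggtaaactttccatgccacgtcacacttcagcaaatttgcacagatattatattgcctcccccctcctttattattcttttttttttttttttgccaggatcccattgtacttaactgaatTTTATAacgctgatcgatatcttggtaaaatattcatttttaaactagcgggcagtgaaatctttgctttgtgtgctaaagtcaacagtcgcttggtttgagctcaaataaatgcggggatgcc

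The CpG observed over expected ratio of these windows was 0.71 for LINC00900, 0.94 for LINC02028 and 0.64 for LINC00954. It was 0.18 for LINC02907, 0.35 for LINC01356 and 0.42 for LINC02299. The LINC00473 window had 0.75, and the LINC00261 window had 0.79 in a sequence of 37.0% GC, where few CpG sites are needed to reach such a ratio. GGGCGG occurred 3 times in the LINC00900 window, 5 times in that of LINC02028 and 4 times in that of LINC00954. It did not occur in the windows of LINC02907 and LINC01356, whose peaks ranked directly below that of LINC00900 among all LINC regions.

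Many of these peaks did not lie on the annotated start itself. In replicate 1, 446 of 1029 LINC peaks (43.3%, Wilson 95% interval 40.3 to 46.4) covered the start of the annotated transcript, against 59.8% of all other promoter peaks. In replicate 2, 448 of 1021 (43.9%, 40.9 to 46.9) did so, against 60.7%. The authors' class up to 1 kb held 701 LINC peaks in replicate 1 and 688 in replicate 2, the class from 1 to 2 kb held 168 and 176, and the class from 2 to 3 kb held 160 and 157. The median summit lay 121 bp downstream of the start in replicate 1 and 169 bp in replicate 2, against 198 bp and 197 bp for other promoter peaks. The middle 50% of LINC summits ran from -709 to 691 bp in replicate 1 and from -597 to 832 bp in replicate 2, wider than the -347 to 431 bp and -346 to 432 bp of other promoter peaks. Among peaks that covered the start, 56.7% and 53.8% of LINC summits lay within 250 bp of it, against 48.1% of other summits in both replicates. The intervals given here and later cover counting error alone.

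**Figure D1:**
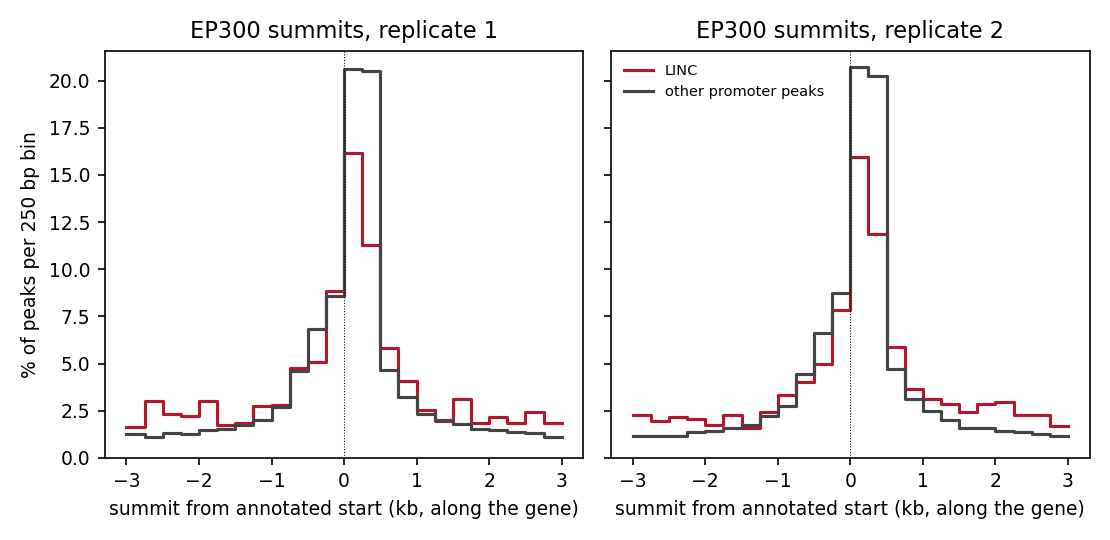
Position of EP300 summits relative to the annotated transcript start (x axis, kb along the gene) as the share of peaks in bins of 250 bp (y axis, %), for LINC promoter peaks and for other promoter peaks, with a panel for each replicate. Both sets peak just downstream of the start, and LINC summits are spread more widely, with medians of 121 and 169 bp against 198 and 197 bp.

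LINC promoter peaks had lower median fold enrichment than promoter peaks of coding genes, and medians near those of other non-coding classes. Fold enrichment is the authors' signal value for each peak, taken here as its enrichment over control. It was used to describe and rank peaks within a list. The median fold enrichment of LINC promoter peaks was 4.80 in replicate 1 and 4.81 in replicate 2, against 5.72 and 5.75 over all other promoter peaks. A fold enrichment of 10 or more was reached by 150 LINC peaks (14.6%, 12.6 to 16.9) in replicate 1, against 22.3% of other promoter peaks. It was reached by 165 (16.2%, 14.0 to 18.5) in replicate 2, against 23.6%. Coding promoter peaks had medians of 6.38 and 6.53, antisense RNA genes 4.49 and 4.44, unnamed Ensembl genes 4.42 in both, and other named genes 4.43 and 4.60. The median width of LINC peaks was 813 bp and 859 bp, against 935 bp and 980 bp.

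**Figure D2:**
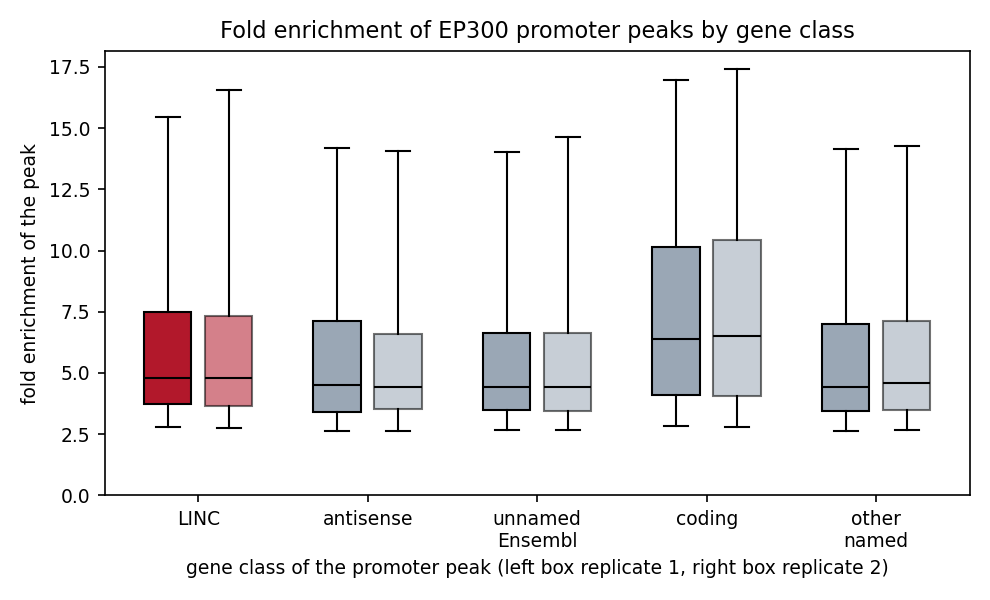
Fold enrichment of EP300 promoter peaks (y axis) by class of the assigned gene (x axis), LINC in red. Lines mark medians, boxes the middle 50% and whiskers the 5th and 95th percentiles; the left box of each pair is replicate 1. LINC medians are 4.80 and 4.81, and coding medians 6.38 and 6.53.

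The order against other promoter peaks depended on which peaks were set beside them. A coding start, that is the 5′ end of a named RefSeq coding gene, lay within 1 kb of 13 LINC peaks in each replicate (1.26% and 1.27%), against 51.3% and 51.1% of other promoter peaks. Each peak carries 1 gene in the annotation, so a peak near a coding start is often given to that gene and the low share is partly set by the choice of members. Without such peaks, LINC promoter peaks had median fold enrichments of 4.77 and 4.80, against 4.27 and 4.23 for the other promoter peaks. Fold enrichment also differed within the set between peaks on and off the start. LINC peaks that covered the start had medians of 6.78 and 6.55, and those that did not had 4.24 and 4.11. The covering peaks were also wider, with median widths of 1020 and 1094.5 bp against 668 and 693 bp. Position and width were not told apart. The other promoter peaks had 7.90 and 7.98 where they covered the start and 4.0 and 3.98 where they did not. LINC peaks thus had the lower median on the start and the higher median off it, in both replicates. Of the peaks on the start, 2.69% and 1.34% of LINC peaks had a coding start within 1 kb, against 73.6% and 73.2% of the others.

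The LINC peaks recurred between the replicates in step with their strength. In replicate 1, 813 LINC peaks (79.0%, 76.4 to 81.4) overlapped a peak of replicate 2 by at least 1 bp, against 84.4% of other promoter peaks. In replicate 2, 797 (78.1%, 75.4 to 80.5) overlapped a peak of replicate 1, against 83.5%. In quartiles of LINC fold enrichment, the shares were 49.6%, 75.5%, 91.1% and 100% in replicate 1, and other promoter peaks in the same fold ranges had 55.5%, 75.2%, 95.6% and 99.95%. In replicate 2 the LINC shares were 47.7%, 71.9%, 93.5% and 100%, beside 51.1%, 72.9%, 95.5% and 99.9%. The 216 LINC peaks found in replicate 1 alone had a median fold enrichment of 3.53 and the 224 found in replicate 2 alone 3.40. By gene, 548 LINC genes had overlapping promoter peaks in both replicates, 84 genes had promoter peaks in replicate 1 alone and 96 in replicate 2 alone. The same counts by gene were not taken over other genes, so they describe the LINC genes only.

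Overlapping peaks were merged into regions, and 752 regions held a LINC promoter peak of both replicates. Their median length was 1138 bp and their median fold enrichment, averaged over replicates, was 5.59. Across the 752 regions, Pearson's r of log2 fold enrichment between replicates was 0.90 and Spearman's rho 0.86, a description over regions that share the same 2 samples. The summits of a region lay a median of 60.5 bp apart, and within 100 bp in 486 regions (64.6%). The replicates differed by more than 1.5-fold in 61 regions and by more than 2-fold in 12. These measures of agreement were not taken over regions of other promoter peaks. The widest gap was at LINC00539, where the highest peak had 19.8 in replicate 1 and 6.31 in replicate 2 and the summits lay 1389 bp apart. It was named after its values were seen, as were LINC01979, with 8.26 in replicate 1 and 19.8 in replicate 2, and LINC01391, with 9.16 and 19.6.

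**Figure D3:**
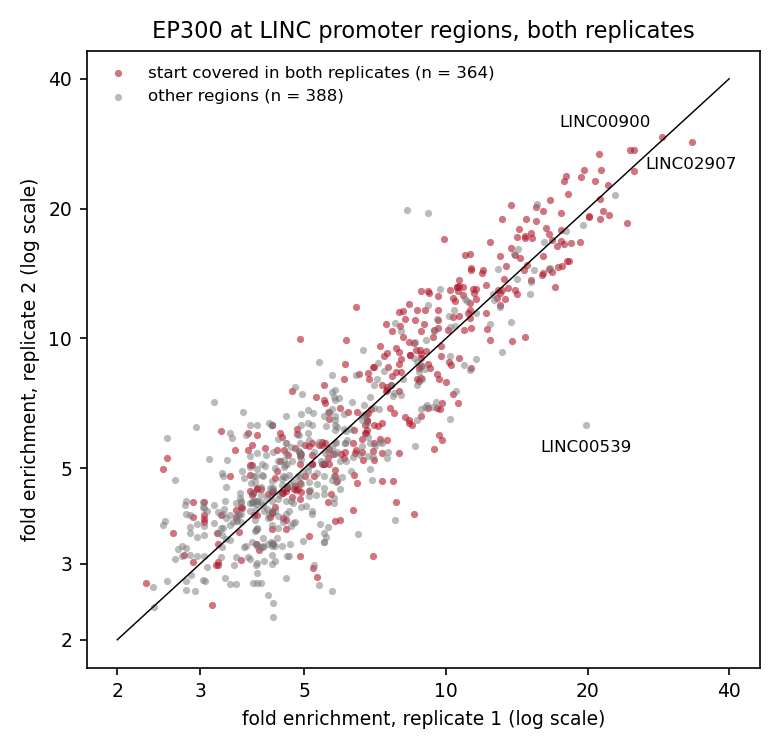
Fold enrichment of the highest LINC promoter peak of each of 752 regions in replicate 1 (x axis, log scale) and replicate 2 (y axis, log scale), with the line of equality. The 364 red regions cover the annotated start in both replicates; most regions lie near the line, and LINC00539, at 19.8 and 6.31, lies farthest from it.

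The highest LINC regions lay near the top of both peak lists. Regions were ranked by the lower of their percentiles in the 2 lists of all peaks. LINC00900 (ENSG00000246100), at chr11:115759372-115760731, ranked first with 28.7 in replicate 1 and 29.3 in replicate 2, at percentiles of 99.9 in both. Its nearest named coding start, that of the cell adhesion gene CADM1, lay 255 kb away. LINC02907, at chr9:135336542-135345296, had 33.3 and 28.6 over a peak of 7483 bp in replicate 1 and 8035 bp in replicate 2. Its highest summits lay at -2093 and -2064 bp from the start, so the strongest signal of that domain was not on the start, whose CpG-poor window is printed above. LINC01356 had 25.1 and 27.3, with summits 46 and 27 bp past the start.

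The other 9 of the 12 highest regions had fold enrichments between 19.6 and 27.4. LINC00926 had 24.6 in replicate 1 and 27.4 in replicate 2. LINC02299 had 25.1 and 24.4, and its summits lay 640 and 666 bp past the start. LINC02028 had 22.1 and 22.7, and LINC02036 had 20.7 and 23.1. LINC00954 had 21.4 and 24.6, with summits at -16 and 76 bp from the start. LINC00237 had 21.2 and 26.8, LINC02846 had 21.3 and 21.0 and LINC00240 had 19.6 and 24.6. LINC01623 had 22.9 and 21.5 and was the one of the 12 whose highest peak did not cover a start, with summits at -2120 and -2108 bp. In all, 131 of the 752 regions, of 125 genes, had 10 or more in both replicates. The same count was not taken over regions of other promoter peaks.

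**Figure D4:**
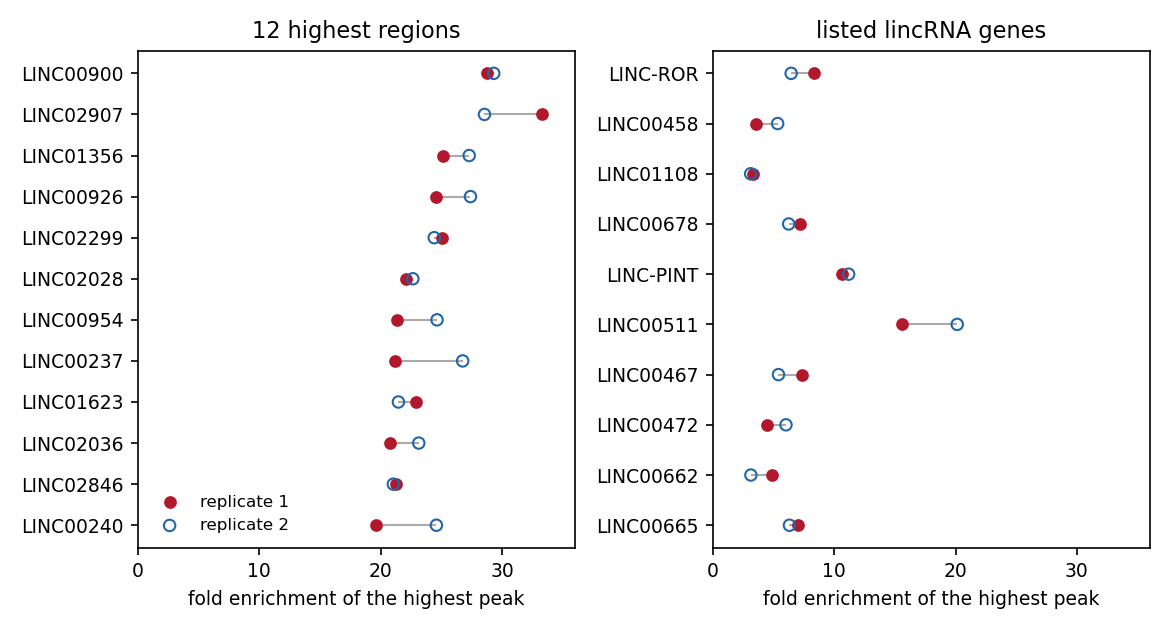
Fold enrichment of the highest promoter peak (x axis) in replicate 1 (filled) and replicate 2 (open), for the 12 highest LINC regions (left) and for the listed lincRNA genes that had a promoter peak (right). The 12 regions lie between 19.6 and 33.3. Among the listed genes LINC00511 lies highest, at 15.6 and 20.1, at a peak that overlaps the start window of LINC00673.

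LINC02028 and LINC02036 flank the same coding gene, HES1, a basic helix-loop-helix repressor and target of Notch signalling. Within 500 kb of the HES1 start lay 13 LINC regions of 5 genes, LINC02026, LINC02028, LINC02036, LINC02048 and LINC00887, at distances from 65.2 kb to 179 kb. This locus was chosen after the values were seen. LINC02028 lay 65.2 kb before the HES1 start and LINC02036 68.1 kb after it, and these were the highest regions on their sides. LINC02026, 133 kb before HES1, had 16.8 in replicate 1 and 16.9 in replicate 2. LINC00887, 161 kb after it, had 16.1 and 19.7. LINC02048 had 8.18 and 6.59 at its higher region. Of the 13 regions, 5 had 10 or more in both replicates, beside 131 of all 752 LINC regions.

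LINC regions as a whole lay far from coding starts. The median distance to the nearest named coding start was 68.1 kb, and 452 of 752 regions (60.1%) lay over 50 kb away. Neither value was taken over regions of other promoter peaks. A peak near a coding start is often given to that gene, so such distances are partly set by the choice of members. The 752 regions had 497 different nearest coding genes, of which 350 had a single region and 14 had 5 or more. ID2, an inhibitor of basic helix-loop-helix factors, had the most, 13 regions of LINC01814, LINC00298 and LINC00299, between 86.2 and 701 kb away. HES1, BOD1 and ZFP36L2 were each nearest to 7 regions, and CPN2, TRIML1 and FOXF1, a forkhead factor of lung and gut mesenchyme, to 6 each. The other 7 had 5 regions each: AFDN, CLEC6A, NTMT1, UQCRFS1, the leucine zipper factor gene CEBPB, the forkhead factor gene FOXO1 and SOX9, a factor of cartilage and gonad development. All 14 are named for their counts. Gene density differs between these places, and its part in the counts was not tested.

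Beyond 10 kb, median fold enrichment varied little with the distance to a coding start. The 238 regions at over 10 and up to 50 kb had medians of 5.62 and 5.56, the 177 at over 50 and up to 100 kb 5.36 and 5.45, and the 275 farther away 5.64 and 5.71. The 54 regions at over 1 and up to 10 kb had 6.78 and 5.81. The 8 within 1 kb had 10.3 and 8.05. They paired LINC02894 with ESRP1, an epithelial splicing regulator, LINC00857 with the annexin gene ANXA11, LINC01135 with the AP-1 subunit gene JUN and LINC00476 with ERCC6L2. They also paired LINC00649 with ATP5PO, a subunit of ATP synthase, LINC00672 with LASP1NB, LINC01058 with UBE2L5 and LINC02926 with the zinc finger gene ZNF564. In 7 of the 8 pairs the genes lie on opposite strands, the exception being LINC00672 and LASP1NB. LINC02894 had 16.8 in replicate 1 and 14.3 in replicate 2, LINC00857 had 12.4 and 16.7, and LINC01135 had 12.2 and 11.5, while LINC02926 had 2.80 and 3.91.

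Some LINC genes carried EP300 as wide domains or along several starts. The widest LINC peak was at LINC00029, 11390 bp with 11 summits in replicate 1 and 11070 bp with 11 summits in replicate 2, and its fold enrichment was 21.6 and 19.8. LINC00029 lay 18.6 kb from BHLHE23, a basic helix-loop-helix gene of neural tissue. LINC01629 had a peak of 8664 bp in replicate 1 and 8576 bp in replicate 2. Its fold enrichment was 8.79 and 9.38, at percentiles of 82.6 and 83.9 among all peaks. LINC peaks of 1.5 kb or more had median fold enrichments of 9.28 and 8.52, and those of 5 kb or more 15.1 and 17.7. Other promoter peaks of 5 kb or more had 15.3 and 14.0. Peaks of 5 kb or more numbered 6 (0.58%) and 8 (0.78%) among LINC peaks, against 0.29% and 0.35% of other promoter peaks, whereas peaks of 1.5 kb or more were 15.7% and 18.1% of LINC peaks, against 23.8% and 25.8%.

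Most LINC genes had 1 promoter peak, 405 genes in replicate 1 and 425 in replicate 2, and 77 and 73 genes had 3 or more. LINC01814, near ID2, had the most, 9 peaks in replicate 1 and 11 in replicate 2, at fold enrichments from 3.37 to 9.14 and from 3.13 to 11.95. LINC00963 had 8 in each replicate, with the highest at 16.0 and 14.0. LINC00511 had 8 and 6 and LINC00887 8 and 5. LINC01060 had 7 and 6, none above 6.71 in replicate 1 or 6.31 in replicate 2. Peaks of a gene share its locus and are not separate genes.

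The same data can be read from the genes, by asking how many RefSeq starts carried EP300. Of 1580 LINC genes with a start window, 337 (21.3%, 19.4 to 23.4) had a window overlapped by a region of both replicates, against 55.5% of all other genes and 70.8% of coding genes. The share was 46.3% (43.8 to 48.8) for antisense genes and 27.9% (26.9 to 28.9) for other long non-coding RNA genes. A region spans the peaks of both replicates, so a window on it need not carry a peak of each. No start window was available on chromosome 8, which holds 85 LINC genes of the RefSeq gene table. Not every such overlap makes a member, because the authors gave each peak 1 gene. In replicate 1, 323 LINC genes had a peak on the window and 90 of them had none assigned to a LINC promoter there, of which 28 had peaks of coding genes alone. In replicate 2 the counts were 330, 92 and 30.

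CpG content differed between LINC windows with EP300 and those without. Windows with an observed over expected ratio of at least 0.6 were called CpG-rich. EP300 lay on a window of 173 of 277 LINC genes with a CpG-rich window (62.5%, 56.6 to 68.0) and of 164 of 1303 without (12.6%, 10.9 to 14.5). A gene counted as CpG-rich, or as overlapped, where any of its windows was, so the 2 can be different windows. Coding genes had more windows per gene than LINC genes, and the shares were not adjusted for this. Coding genes had 89.9% and 25.6%, antisense genes 86.4% and 18.2%, and other long non-coding RNA genes 78.5% and 10.4%. In the CpG-rich class the LINC interval lay below those of the other 3 classes, and in the CpG-poor class it lay below the coding and antisense intervals and overlapped that of other long non-coding RNA genes (9.69 to 11.2). The median ratio of LINC windows was 0.62 with EP300 and 0.21 without, and the median GC content 62.0% and 45.3%. Among LINC peaks that overlapped a window of their own gene, CpG-rich windows had median fold enrichments of 7.48 (n = 107) and 7.71 (n = 109) and CpG-poor windows 5.28 (n = 135) and 5.52 (n = 137). Spearman's rho between ratio and fold enrichment was 0.29 over 242 peaks in replicate 1 and 0.25 over 246 in replicate 2. The start windows of LINC02907, LINC01356 and LINC02299, printed above, were CpG-poor although their regions were high. The ratio is that of the window and was not taken over the peaks. At LINC02907 and LINC02299 the highest summits lay outside the window.

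**Figure D5:**
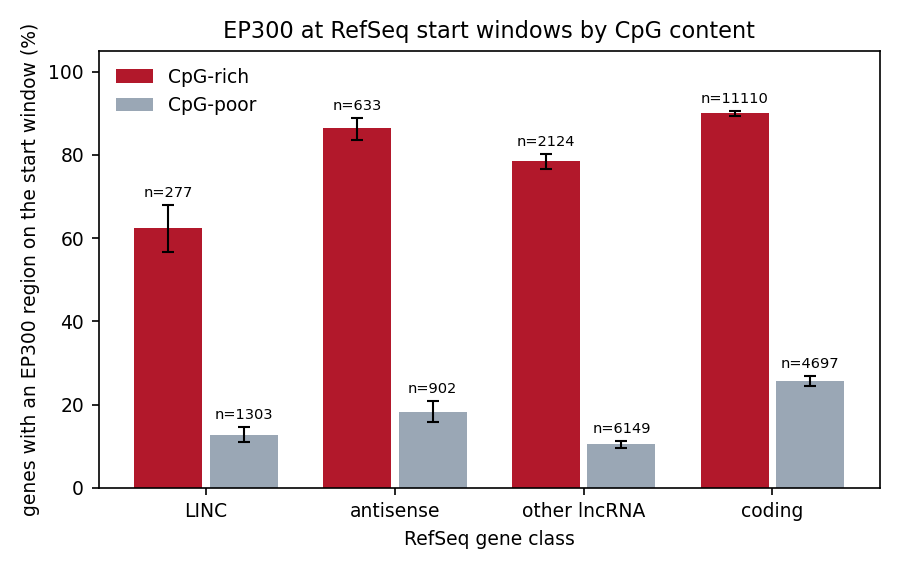
Share of RefSeq genes with a start window overlapped by an EP300 region of both replicates (y axis, %), by gene class (x axis). Genes are split by the highest CpG ratio among their windows. Bars start at 0, error bars are Wilson 95% intervals and n is the number of genes. LINC genes have 62.5% in the CpG-rich and 12.6% in the CpG-poor class, and coding genes 89.9% and 25.6%.

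The motifs differed in how often they occurred in LINC windows with EP300 and in those without. GGGCGG was in 56.9% of the 364 LINC windows with EP300 and 9.01% of the 1377 without, against 45.0% of all 34961 windows. This contrast was not particular to LINC genes. With and without EP300, GGGCGG was in 64.9% and 14.4% of antisense windows and in 73.4% and 23.6% of coding windows. Other long non-coding RNA genes had 62.8% and 10.1%. GCCNNNGGC was in 30.2% with EP300 and 8.42% without, against 23.2% of all windows. TATAAA was in 4.40% with EP300 and 19.4% without, against 11.5%, and CCAAT was in 26.1% and 38.5%, against 34.6%. ATGCAAAT was in 0.82% and 3.27%, against 1.77%, and CATTGTT in 1.10% and 6.10%, against 3.31%. The LINC shares with EP300 rest on 3 windows for ATGCAAAT, 4 for CATTGTT and 2 for the NRF1 palindrome. TGANTCA was in 7.42% and 15.3%, against 7.68%, and GGAATG in 16.5% and 18.8%, against 14.0%. GGGTGTGG was in 3.30% and 2.47%, against 3.29%, TGACGTCA in 2.20% and 0.87%, against 1.85%, CCGGAAGT in 3.02% and 0.73%, against 4.14%, and the NRF1 palindrome in 0.55% and 0.29%, against 1.24%. Most of these contrasts were not particular to LINC genes either. Each motif other than GGGTGTGG differed in the same direction in antisense, coding and other long non-coding RNA windows. GGGTGTGG did so in antisense and other long non-coding RNA windows, but was less frequent with EP300 in coding windows. A match is a string in the window and not a binding site, and its part beside base composition was not tested.

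All 4 listed lincRNA genes of pluripotent cells had promoter peaks in both replicates, beside 528 of all 2310 LINC genes in the RefSeq gene table (22.9%). LINC-ROR, named as a regulator of reprogramming, had 8.35 in replicate 1 and 6.45 in replicate 2 at its highest peak, with 2 and 4 promoter peaks. LINC00678, beside BDNF, had 7.15 and 6.25. LINC00458 had 3.55 in replicate 1, overlapped by a peak of 2.99 in replicate 2, and a further peak of 5.34 in replicate 2 alone. LINC01108 had 3.32 and 3.12, below the lower quartiles of LINC peaks (3.73 and 3.64), downstream of its RefSeq window, which no region overlapped. The median of the highest peak was 5.35 and 5.80 for the 4 genes. It was 5.80 over the 646 LINC genes with a promoter peak in replicate 1 and 5.65 over the 658 in replicate 2. Those include genes with promoter peaks in 1 replicate alone, whereas all 4 listed genes had them in both. The 5.80 of the 4 genes counts the LINC00458 peak of 5.34 found in replicate 2 alone. The list was chosen with earlier results of these data known.

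Of 10 lincRNA genes with a role described in other cells, 6 had promoter peaks in both replicates, beside the same 22.9% of all LINC genes. The medians of their highest peak were 7.17 and 6.17, beside the same 5.80 over 646 LINC genes in replicate 1 and 5.65 over 658 in replicate 2. Here too the larger sets include genes with promoter peaks in 1 replicate alone. LINC-PINT, a p53-induced transcript beside MKLN1, had 10.3 and 11.2 at a peak near its start and 10.6 and 7.08 at the neighbouring peak. LINC00511, studied in tumours and lying 471 kb from SOX9 at its highest peak, had 15.6 and 20.1. That peak overlapped the start window of LINC00673, to which no promoter peak was assigned. No region overlapped the RefSeq start window of LINC00511 itself. LINC00467 had 7.32 and 5.41 and LINC00665 7.02 and 6.31. LINC00472 had 4.44 and 6.03, and LINC00662 4.90 and 3.13. LINC00261, beside the endoderm gene FOXA2, and LINC00473, a target of cAMP signalling, had no promoter peak in either replicate and no region on the windows printed above. LINC01578 is listed in the files as CHASERR and so was not a member, although regions overlapped both of its windows.

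At the weak end, the 3 lowest regions were those of LINC00028, with 2.31 in replicate 1 and 2.71 in replicate 2, LINC00642, with 4.29 and 2.26, and LINC02116, with 2.39 and 2.38. The LINC00642 region, from 2 to 3 kb off the start, ranked low through replicate 2 alone, with percentiles of 46.3 and 0.48. Another promoter peak of LINC00642, on the start, had 6.12 and 9.91. The highest LINC peaks without a partner were at LINC01431 (6.83), LINC00511 (6.26) and LINC01823 (5.87) in replicate 1, and at LINC00479 (5.45), LINC02608 (5.44) and LINC00458 (5.34) in replicate 2. Of these 6 genes, LINC01431 and LINC02608 had no promoter peak in the other list, while the other 4 had other promoter peaks in both lists.

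LINC genes with promoter peaks were spread over all 23 chromosomes examined. Of 2310 LINC genes in the RefSeq gene table, 528 (22.9%, 21.2 to 24.6) had a promoter peak in both replicates. By chromosome the share ran from 14.1% on chromosomes 4 and 8 to 34.3% (20.8 to 50.8) on chromosome 22, and the X chromosome had 8 of 42 (19.0%, 10.0 to 33.3). As a share of promoter peaks, LINC peaks were highest on chromosome 13, at 10.5% in replicate 1 and 10.2% in replicate 2, and chromosome 21 had 7.51% and 6.87%, beside 5.15% and 6.99% on chromosome 18. They were lowest on chromosome 19, at 1.00% in both.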

How the data were processed

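EP300 ChIP-seq was analysed in 2 samples of naive H9 cells, and 1 input sample has no table here. Cells were crosslinked in 1% formaldehyde for 10 min, quenched in 0.125 M glycine for 5 min and sonicated, per the labels' protocols. The submitters' processing notes name fastp 0.19.11 and the build GRCh38. The sources used here do not name an aligner, a peak caller or a calling threshold. The authors deposited 1 annotated peak table for each EP300 sample, so peaks were called per sample, and per the file names the annotation came from ChIPseeker and the control was input.

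Per the file headers, the columns hold a signal value, taken here as the fold enrichment (a ratio), with the p-value and the q-value as -log10. No deposited q-value exceeded 0.0498. The score that the authors deposited was left aside. Each row is 1 summit, and the 1320 and 1332 LINC promoter rows were joined by interval, keeping the highest fold enrichment and its summit. The start is the 5′ end of the transcript that the authors annotated. Reproducible regions merge peaks of both lists that overlap by at least 1 bp, and overlap and joining were checked on simulated data.

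Coding starts came from RefSeq windows for 15451 named genes and from RefSeq gene extents, with strand from the authors' annotation, for 3024; 858 had no usable strand, and 361 coding genes with a LOC or LINC symbol were left out after the data were seen. CpG-rich windows had an observed over expected ratio of at least 0.6. Shares have Wilson 95% intervals. With 1 group there was no test. Read depth is unknown. Python 3.11.15, pandas 2.3.3, numpy 2.4.6, scipy 1.17.1 and matplotlib 3.10.9 were used.

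Genes named are those of the 12 highest and 3 lowest regions, the 5 with most promoter peaks, the 3 widest and the 3 highest unshared peaks of each list, 2 gene lists and coding genes within 1 kb of these. Others are marked or named for a small count. The members and lists were chosen with earlier results of these data known. Alternatives used the class up to 1 kb, stricter fold and q limits, a 50% overlap, separate summits and each replicate alone.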

Additional observations from a re-analysis of the deposited data

How the results depend on the processing

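Requiring a fold enrichment of at least 5 left a mean of 479 LINC promoter peaks per replicate, against 1025 ± 5.66 (SD, n = 2), and 334 genes in both replicates, against 548. The share of LINC peaks found in the other replicate, 78.5% ± 0.67, was 72.1% when 50% of the peak had to overlap, 76.6% when the partner also had to be a LINC promoter peak, 82.4% within 1 kb of the start, 97.3% at a fold enrichment of at least 5 and 91.5% at a -log10 q of at least 5. The median fold enrichment, 4.80 ± 0.01, was 5.30 within 1 kb, 6.02 at the stricter q, 5.50 among peaks of both replicates and 4.74 with summits counted separately. The median width, 836 ± 32.5 bp, was 928 bp within 1 kb, 1166 bp at a fold enrichment of at least 5 and 957 bp among peaks of both replicates. The share with a coding start within 1 kb, 1.27% ± 0.01, was 2.59% with a window of 3 kb, 1.88% at a fold enrichment of at least 5, 1.43% among peaks of both replicates and 2.19% with LOC and LINC coding models included, an alternative chosen after seeing the data. The share that covered the start, 43.6% ± 0.38, was 64.4% within 1 kb, 63.1% at a fold enrichment of at least 5 and 49.8% among peaks of both replicates. All other settings tried moved the 2 counts by less than 1.5 times. The values of the single replicates, from which the means above were taken, ran from 1021 to 1029 peaks and 78.1% to 79.0% found in the other replicate. The median fold enrichment ran from 4.80 to 4.81 and the width from 813 to 859 bp. The share with a coding start ran from 1.26% to 1.27% and that on the start from 43.3% to 43.9%. A single replicate named 646 to 658 genes, which is another count than the 548 genes with overlapping peaks in both. The share found in the other replicate needs both lists, so neither value can be checked with 1 replicate left out. No paired analysis was possible because the EP300 samples form 1 group. How far depth limits the weak peaks was not tested, as no read counts are given.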
